A study of Mus musculus with 154 samples.

Results

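Long intergenic noncoding RNAs (lincRNAs) are transcripts that are spliced and polyadenylated much like messenger RNAs, lie between protein-coding genes and carry no long open reading frame. Some build nuclear structures, as Neat1 does for paraspeckles, some are the precursors of microRNAs or small nucleolar RNAs, and for most members no function is known. Their level in a tissue can be set by DNA variation close to the gene or by factors encoded elsewhere in the genome, and a panel of mice that differ by whole chromosomes separates both cases.

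The lincRNAs of mouse liver were taken as all genes of the count table with the gene type lincRNA in the GENCODE vM21 annotation. The table held 201 of them, of 5854 lincRNAs in the annotation. H19 was left out by the rule that chose the genes, which left 200 lincRNAs among 13289 genes, of which 11889 were protein-coding. By position, 21 lincRNAs overlapped a protein-coding gene of the table on the opposite strand and 6 on the same strand. Another annotated gene of any type was overlapped by 91 of the 200, and on the same strand by 46. Liver RNA came from 154 male mice of 24 strains, 5 weeks old and fasted overnight. Of these, 20 were C57BL/6J mice (B6), and 8 strains, named A3, A4, A5, A6, A8, A10, A14 and A17, were heterozygous for 1 chromosome of strain A/J on a B6 background, with 7 or 8 mice each. These chromosome substitution strains (CSSs) carry labels such as (B6.A8  X B6)F1. The other 15 strains, with 3 to 6 mice each, were double CSSs, heterozygous for 2 A/J chromosomes. The mouse labelled (B6.A8  X B6.A14)F1 is written A14:A8 here, with the dam's chromosome first. A whole chromosome is substituted, so an effect belongs to the chromosome and not to a single variant on it, and only dominant or semi-dominant effects can be seen. The A/J chromosome came from the dam in A3, A6, A14 and A17 and from the sire in A4, A5, A8 and A10. Effects of a chromosome and of the parent that passed it on cannot be told apart.

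A main effect of a chromosome is the log2 difference between its single CSS and B6 (a main effect quantitative trait locus, meQTL). An interaction (ieQTL) is how far, in log2 units, a double CSS departs from what its 2 main effects add up to. Effects were called local where the lincRNA lay on a substituted chromosome and distant otherwise. All were read out of 1 fit over all genes with edgeR's quasi-likelihood test and 5 surrogate variables, and a call is a Benjamini-Hochberg FDR under 0.05. Effects are thus adjusted for the surrogate variables, while CPM are not, so an effect can differ from the log2 ratio of the CPM beside it.

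Counts per mouse lay between 4638701 and 30465477, with a median of 16116424. Hepatocyte markers dominated, with Alb, the gene of serum albumin, at a mean of 76676 counts per 1000000 counts (CPM). Of markers of other cell types, the lists of macrophages, endothelium, stellate cells and erythroid cells (5 of 5 genes in the table each) had summed medians of 236, 279, 371 and 251 CPM over all mice. The lists of cholangiocytes (4 of 5, without Krt19) and lymphocytes (4 of 5, without Cd3e) had medians of 34.0 and 62.8 CPM. Of 5 exocrine pancreas markers and 5 skeletal muscle markers, 1 each was in the table, with medians of 5.29 and 0.0714 CPM. Mouse E733 of strain A14:A4 had Y-linked counts near 0 although all mice are labelled male, and where a named call is lost without it, this is said beside the call. Fewer cells of a type and less RNA per cell cannot be told apart in whole liver. Mice of a strain are numbered in the order of their records. No label ties the mice of a strain to litters or cages, so the errors measure the spread between mice of a strain.

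The 200 lincRNAs took between 0.741% and 1.55% of the counts of a mouse, with a median of 1.05%. Malat1, a nuclear RNA of splicing speckles, alone took a median of 0.493%. Gm26917 and Gm42418, neighbours on chromosome 17 beside and over an annotated ribosomal RNA gene, took a median of 0.387%, with a range from 0.226% to 0.877%. Whether reads of ribosomal RNA are counted in these genes was not tested. All other lincRNAs together took a median of 0.151%. Mean levels ran from 0.666 CPM to 4924 CPM with a median of 2.10 CPM, and 48 lincRNAs lay under 1 CPM, 24 between 10 and 100 CPM and 6 above 100 CPM. A count of 15 was reached in 75% or more of the mice by 129 of the 200, and in every mouse by 58.

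Per kilobase of exon, Gm42418 stood at 889 CPM, Gm26917 at 739 CPM and Malat1 at 705 CPM per kilobase. Gm20186 followed at 182 CPM and Gm12840 at 121.6 CPM per kilobase. AW112010, a transcript known to be induced by interferon gamma in immune cells, stood at 45.1 CPM per kilobase, and Neat1, which is long, at 8.05 CPM per kilobase. In Malat1 the 20 B6 mice lay between 3805 and 6175 CPM with a median of 4874 CPM. The 8 A10 mice lay between 5119 and 8116 CPM with a median of 6042 CPM, and the 2 groups overlapped. The fitted A10 effect was 0.14 ± 0.07 (log2, SE) with an FDR of 0.23 in edgeR's quasi-likelihood test, so it was not called. Malat1 had no meQTL and no ieQTL, while the joint test of all 23 strain coefficients gave an FDR of 0.00022 (edgeR quasi-likelihood).

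The sequences of the microRNAs that 2 of the lincRNAs carry are shown first, because both hosts fell below the additive expectation in double CSSs (described further on) and because the seed, not the host, defines what a microRNA pairs with. Of the 200 lincRNAs, 11 hold an annotated microRNA gene on their own strand. 6720427I07Rik, at chr13:48532905-48546500 on the minus strand (GRCm38), spans 3 let-7 genes, a family known as a brake on growth and as abundant in adult liver. The mature 5′ arms, from RefSeq on build GRCm38.p6, are given with the seed (bases 2 to 8) in capitals.
mmu-let-7a-5p, chr13:48538239-48538260: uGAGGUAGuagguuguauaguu
mmu-let-7f-5p, chr13:48537889-48537910: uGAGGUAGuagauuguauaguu
mmu-let-7d-5p, chr13:48536078-48536099: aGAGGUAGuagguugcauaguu
All 3 share the seed GAGGUAG, which the capitals mark. Mir17hg, at chr14:115042879-115046727 on the plus strand, is the host of the miR-17 to miR-92 cluster, which is known to favour cell division and survival. Its 6 microRNA genes give mature products with several seeds.
mmu-miR-17-5p, chr14:115043684-115043706: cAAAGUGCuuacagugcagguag
mmu-miR-20a-5p, chr14:115044183-115044205: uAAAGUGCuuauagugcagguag
mmu-miR-18a-5p, chr14:115043867-115043889: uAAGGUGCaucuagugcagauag
mmu-miR-19a-3p, chr14:115044048-115044070: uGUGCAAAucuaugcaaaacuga
mmu-miR-19b-3p, chr14:115044358-115044380: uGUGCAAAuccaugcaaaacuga
mmu-miR-92a-3p, chr14:115044476-115044496: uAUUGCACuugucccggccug
The 5′ products of miR-17 and miR-20a share 1 seed, and the 3′ products of miR-19a and miR-19b share another. The counts measure the host transcripts, and mature microRNAs were not measured here.

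The first question was how often lincRNAs were under genetic control, beside protein-coding genes of like level. Of the local tests (a lincRNA on a substituted chromosome), 10 were called, or 9.90%, where over all genes the share was 18.4% (percent of tests called). Of 1499 distant main effect tests, 115 were called, or 7.67%, against 10.7% of all genes' tests. Of 377 local interaction tests 13 were called (3.45%, against 5.3% of all), and of 2623 distant interaction tests 71 were called (2.71%, against 6.04%). The joint test of all strain coefficients called 72 of 200 lincRNAs (36%, against 51.4% of all genes), and the joint test of the 15 interactions called 31 (15.5%, against 27.4%). Every one of these 6 shares was below that of all genes.

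Protein-coding genes were more abundant, with a median average log2 CPM of 3.81 against 1.15 for the lincRNAs, and in both classes the share called was highest at the highest levels. With the protein-coding shares weighted to the lincRNAs' 5 level bins, the expected share was 14.2% for local main effects, 6.17% for distant main effects, 2.90% for local interactions and 3.19% for distant interactions. The lincRNA shares of 9.90%, 7.67%, 3.45% and 2.71% lay on both sides of these. For joint genetic control the weighted share was 33.2% beside 36%, and for joint interactions 13.6% beside 15.5%. At an average log2 CPM of 4 and above, 32 of 142 distant main effect tests of lincRNAs were called (22.5%) and 15.6% of the protein-coding tests. These shares describe the classes, and no test was made of their difference. The biological coefficient of variation, the spread between mice left after counting error, was also near that of coding genes at low level. Its median was 22.2% against 21.9% under a log2 CPM of 0, and 13.4% against 8.34% at 4 and above.

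**Figure D1:**
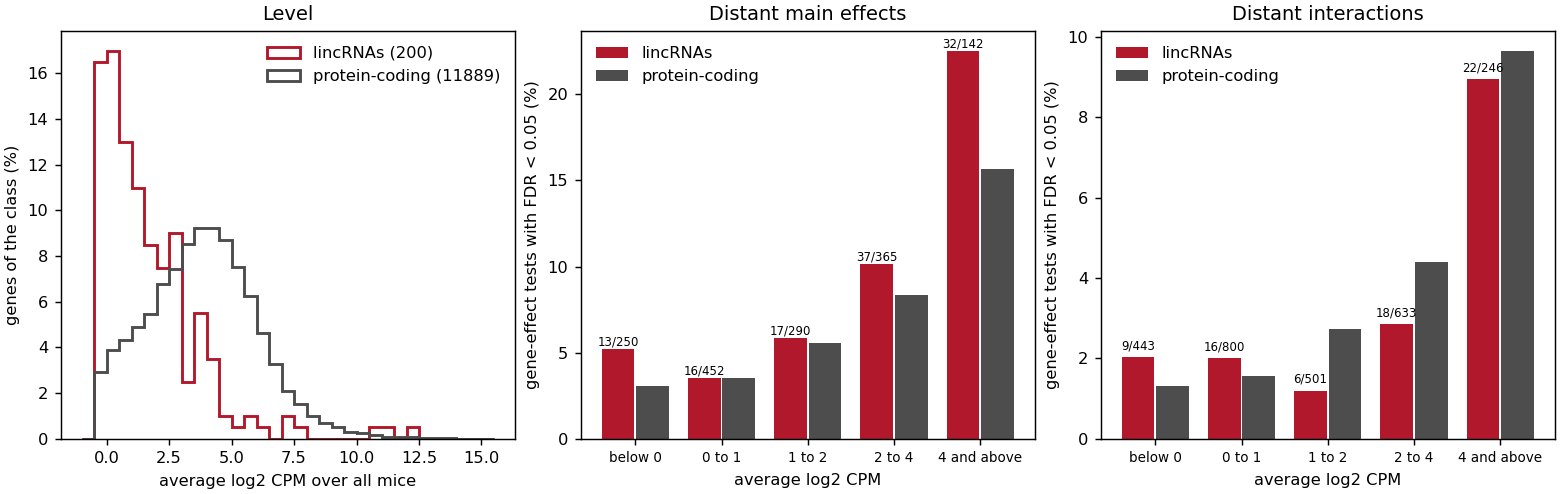
Left, percent of genes of each class by average log2 CPM, for 200 lincRNAs (red) and 11889 protein-coding genes (grey). Middle and right, percent of gene-effect tests with an FDR under 0.05 in each bin of average log2 CPM, for distant main effects and distant interactions, with the lincRNAs' called and tested numbers above the bars. The lincRNAs sit at low level, and in both classes the share called is highest at 4 and above (22.5% and 15.6% for distant main effects).

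Of the 200 lincRNAs, 68 had at least 1 meQTL and 34 had at least 2, and 53 had at least 1 ieQTL and 18 at least 2. Among those with at least 1, 50% had at least 2 meQTLs (54.2% over all genes) and 34.0% at least 2 ieQTLs (55.3%). No effect of any kind was called for 96 of the 200 lincRNAs. The lincRNAs called per chromosome ranged from 3 to 30. For A8, 30 of 200 were called (15%), beside 29.6% of all genes. For A4, 27 were called (13.5%, the same share as over all genes, 13.5%), for A14 22 (11% against 22.5%), and for A6 16 (8% against 8.09%). For A10, 15 were called (7.5% against 6.64%), for A3 7 (3.5% against 3.7%) and for A17 5 (2.5% against 3.67%). For A5, 3 were called (1.5% against 0.768%), and all of them lay on chromosome 5, where 7.72% of all genes were called. Among the 175 lincRNAs elsewhere edgeR's quasi-likelihood test called 0 for A5 (0.219% of all genes), with 23 at an unadjusted p under 0.05 (11.9% of all genes), and DESeq2 also called 0.

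Of the interactions, A6:A8 held 30 called lincRNAs (15%, against 24.8% of all genes) and A14:A8 held 28 (14% against 32.4%). A14:A4 held 9 (4.5% against 4.63%), but 1 when mouse E733 was left out, and between 1 and 10 when its mice were left out in turn. A17:A8 and A3:A8 held 4 each (8.68% and 7.56% of all genes), A14:A10 held 3 (4.16%) and A3:A10 held 2 (1.17%). A14:A5, A17:A4, A6:A10 and A6:A4 held 1 each (4.04%, 1.21%, 0.0527% and 0.542% of all genes). These small counts rest on single mice: leaving out 1 mouse gave 2 to 4 in A17:A8, 1 to 5 in A3:A8, 2 to 3 in A14:A10, 0 to 2 in A3:A10, 0 to 2 in A14:A5, 0 to 1 in A17:A4, 0 to 3 in A6:A10 and 1 to 2 in A6:A4. In A17:A10, A17:A5, A3:A5 and A6:A5 edgeR's quasi-likelihood test and DESeq2 both called 0 lincRNAs, beside 0.113%, 0%, 0% and 0% of all genes. At an unadjusted p under 0.05 there were 26, 17, 9 and 18 lincRNAs, beside 12.3%, 9.32%, 4.49% and 5.68% of all genes. Most interactions of lincRNAs therefore stood in the 2 crosses of A8 with A14 and with A6. Their 2 double CSSs share the A8 and B6 mice, so these calls are not independent.

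The called effects had a direction. Of the called main effects 95 were higher than B6 (76%), against 44.9% of 10795 among protein-coding genes. Of 84 called interactions 73 were negative (86.9%), against 41.3% of 11191 among protein-coding genes. The B6 and single CSS mice enter main effects and interactions with opposite signs, so these directions are not independent of each other. The median over all tests, called or not, was 0.05 for lincRNA main effects and -0.06 for lincRNA interactions on the log2 scale. Protein-coding medians were -0.01 and 0.01. Low-level coding genes leaned the same way less: under a log2 CPM of 2, 61.2% of their called main effects were higher and 62.8% of their called interactions were negative. Other noncoding types leaned likewise. Of genes annotated as antisense, 72.7% of 77 called main effects were higher and 81.0% of 58 called interactions were negative. For processed transcripts the shares were 73.9% and 85.7%, and for genes typed TEC (a class of unverified transcripts) 80.7% and 67.8%.

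The size of the lean moved with the number of surrogate variables. With none, 92.6% of the called main effects of lincRNAs were higher and 93.9% of 180 called interactions were negative. With 10, the shares were 72.9% of 48 and 78.6% of 14. The direction was the same under both. The summed hepatocyte markers had a median of 110977 CPM in B6, 72544 CPM in A8 and 82876 CPM in A14. Of the 6 markers, 4 fell in A8 and 3 in A14. In A4 and A10, where 17 of 27 and 11 of 15 called lincRNAs were higher, 0 of these markers were called. In A6, where 12 of 16 called lincRNAs were higher, 1 marker rose and 1 fell. In A14:A8 the hepatocyte sum was at 109545 CPM, and 4 of 6 markers had a positive interaction, as had 3 of 6 in A6:A8. Of the 5 macrophage markers, 2 each rose in A4 and A14, 1 each in A6 and A17, and none in A8. Negative interactions were called for 2 of them in A14:A8 and 1 in A14:A10. Of the 5 endothelial markers, 1 each rose in A4, A5, A6, A10 and A17. In A8 1 endothelial marker rose and 1 fell, in A14 2 rose and 1 fell, and 2 had a negative interaction in A14:A8. In A4 and A10 1 stellate marker each rose, and in A4 1 erythroid marker rose. The part of these in the lincRNA results was not tested.

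**Figure D2:**
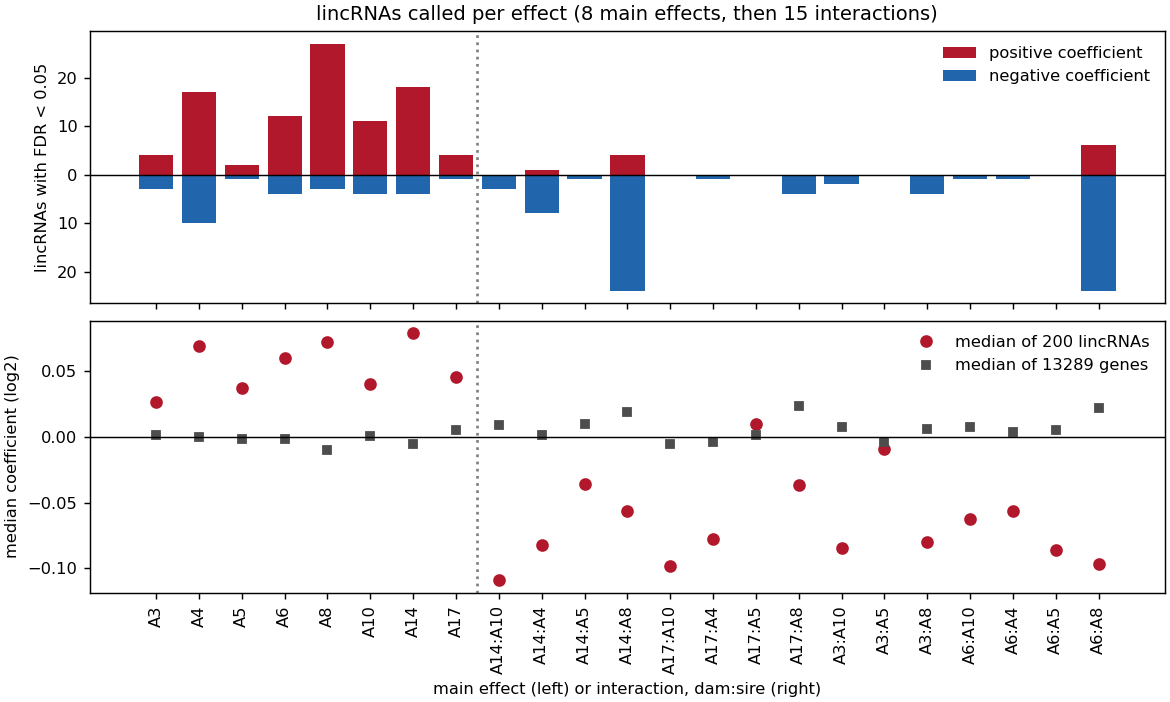
Top, number of lincRNAs of 200 called (FDR under 0.05) for each of 8 main effects and 15 interactions, with positive coefficients upward in red and negative ones downward in blue. Bottom, median coefficient (log2) of the 200 lincRNAs (red circles) and of all 13289 genes (grey squares). For A8, 27 of 30 called lincRNAs were higher (12.9% of all genes were called higher). In A14:A8 24 of 28 and in A6:A8 24 of 30 were negative (14.3% and 11.4% of all genes).

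Local effects come first among the single lincRNAs. D930016D06Rik, at chr5:104525735-104554207 on the plus strand, begins 3124 bases downstream of the protein-coding gene BC005561 on the same strand. Its 20 B6 mice lay between 6.64 and 13.996 CPM with a median of 10.4 CPM. The 7 A5 mice, whose A/J chromosome holds the gene, lay between 5.56 and 10.3 CPM with a median of 7.71 CPM, overlapping the B6 mice. The A5 effect was -0.48 ± 0.10 (log2, SE; edgeR quasi-likelihood FDR 0.00014). In the 4 double CSSs that carry A5 the medians were 6.17 CPM (A14:A5), 7.67 CPM (A17:A5), 8.25 CPM (A3:A5) and 7.29 CPM (A6:A5), so all 4 stood under the B6 median.

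The larger effect on D930016D06Rik was distant. The 8 A8 mice lay between 20.5 and 27.1 CPM with a median of 23.8 CPM, and each was above every B6 mouse. The effect was 1.09 ± 0.095 (log2, SE; edgeR quasi-likelihood FDR 8.85e-18). In A14:A8 the 5 mice were at 13.2, 16.1, 16.9, 17.6 and 18.1 CPM, and in A6:A8 the 6 mice were between 13.4 and 21.9 CPM. The lowest of these overlapped B6 and the highest of A6:A8 overlapped A8. With medians of 19.7 CPM in A17:A8 and 15.7 CPM in A3:A8, the medians of all 4 double CSSs with A8 lay between those of B6 and A8. The interactions were -0.76 ± 0.16 in A14:A8 (FDR 4.4e-05), -0.56 ± 0.15 in A6:A8 (FDR 0.0020) and -0.57 ± 0.17 in A3:A8 (FDR 0.023, edgeR quasi-likelihood). Those in A6:A8 and A3:A8 were not called with 10 surrogate variables (FDR 0.14 and 0.18), nor was that in A3:A8 without mouse 3 of this strain (-0.48, FDR 0.16).

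The coding neighbour BC005561 followed the same order of strains. Its B6 mice had a median of 22.7 CPM (19.3 to 34.5 CPM), its A8 mice a median of 44.4 CPM (40.9 to 52.9 CPM), its A14:A8 mice a median of 33.5 CPM and its A6:A8 mice a median of 35.1 CPM. Its main effects were 0.90 ± 0.07 for A8 (FDR 9.0e-21) and -0.25 ± 0.07 for A5 (FDR 0.012), and its interactions were -0.78 ± 0.11 in A14:A8 and -0.50 ± 0.11 in A6:A8 (FDR 2.4e-08 and 0.00019, edgeR quasi-likelihood). Both genes lie on the same strand close together, and whether reads run on from one into the other was not tested. Pkd2, a further coding gene of chromosome 5, rose in A8 by 0.56 ± 0.06 (FDR 2.2e-13). Its A5 effect (-0.10, FDR 0.34) was not called. Its interactions in A14:A8 (0.03, FDR 0.87) and A6:A8 (-0.01, FDR 0.94) were not called either (edgeR quasi-likelihood).

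**Figure D3:**
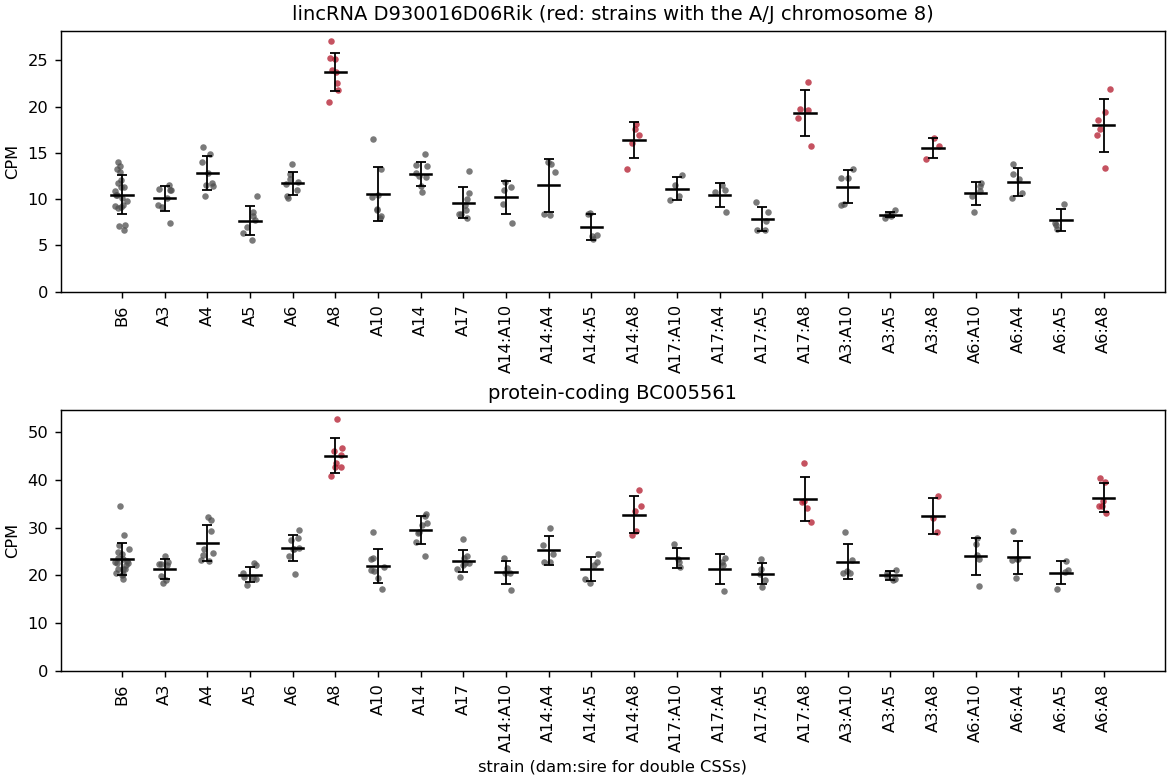
CPM per mouse (points) of the lincRNA D930016D06Rik (top) and of its protein-coding neighbour BC005561 (bottom) in 24 strains, with the mean (bar) and SD (whiskers), and strains that carry the A/J chromosome 8 in red. Both genes are highest in A8 (medians of 23.8 and 44.4 CPM), lower in the 4 double CSSs with A8, and lower still in B6 (medians of 10.4 and 22.7 CPM).

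Gm34333, at chr5:146586645-146600102 on the minus strand, lies 1406 bases upstream of Gpr12, a gene for an orphan G protein-coupled receptor best known from brain. Gm34333 was low, at 0.220 to 0.897 CPM (median 0.553 CPM) in B6. The 7 A5 mice were at 0.664, 0.822, 0.995, 1.23, 1.39, 1.43 and 1.76 CPM, with 5 of them above every B6 mouse. The A5 effect was 1.13 ± 0.25 (log2, SE; edgeR quasi-likelihood FDR 0.00030). In the double CSSs with A5 the medians were 1.11 CPM (A14:A5), 1.20 CPM (A17:A5), 1.82 CPM (A3:A5) and 1.45 CPM (A6:A5). Gpr12 itself rose by 1.68 ± 0.29 in A5 (FDR 2.1e-06), from a median of 0.333 CPM to 1.11 CPM. Gm34333 was also higher in A8 (0.93 ± 0.27, FDR 0.0054), A14 (0.79, FDR 0.021) and A6 (0.74, FDR 0.036), and had a negative interaction in A6:A8 (-1.31, FDR 0.010). None of these 4 was called with 10 surrogate variables (FDR 0.18, 0.28, 0.25 and 0.32), and A14 was not called with none (FDR 0.18).

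5930430L01Rik, at chr5:148990056-148995223 on the minus strand, was the third lincRNA with a local A5 effect. Its B6 mice had a median of 4.15 CPM (1.62 to 6.53 CPM) and its A5 mice a median of 6.48 CPM (3.20 to 7.49 CPM), with overlap. The effect was 0.53 ± 0.13 (log2, SE; edgeR quasi-likelihood FDR 0.00331). The medians of A14:A5, A17:A5, A3:A5 and A6:A5 were 6.79, 6.45, 5.36 and 6.17 CPM, all above the B6 median. The gene overlaps 2 annotated genes on its own strand, so its counts are uncertain. For all 3 lincRNAs the local A5 effect was also called with no surrogate variables and with 10.

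Gm26853, at chr8:19789798-19798548 on the plus strand, had the smallest p of the local effects of chromosome 8. Its B6 mice lay between 21.1 and 32.3 CPM with a median of 26.1 CPM, and its A8 mice lay between 35.6 and 55.4 CPM with a median of 45.6 CPM, with no overlap. The effect was 0.62 ± 0.07 (log2, SE; edgeR quasi-likelihood FDR 5.9e-14). Medians in the double CSSs with A8 were 37.2 CPM (A14:A8), 38.8 CPM (A17:A8), 34.4 CPM (A3:A8) and 36.6 CPM (A6:A8). The interactions called were -0.48 ± 0.11 in A14:A8 (FDR 0.00018), -0.36 ± 0.10 in A6:A8 (FDR 0.0052) and -0.39 ± 0.11 in A14:A4 (FDR 0.026), and all 3 were lost with 10 surrogate variables (FDR 0.22, 0.52 and 0.31). That in A14:A4 was also lost without E733 (FDR 0.052) and without mouse 4 or 5 of this cross (FDR 0.052 and 0.059). The A4 effect of 0.28 ± 0.06 (FDR 0.00097) and the A14 effect of 0.25 ± 0.06 (FDR 0.0013) were lost with 10 as well (FDR 0.16 and 0.23). No coding gene of the table lies within 898437 bases of Gm26853.

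2010320M18Rik is the other lincRNA with a local A8 call. It lies at chr8:70776815-70777823 on the plus strand and starts 102 bases from Pik3r2, a regulatory subunit of phosphoinositide 3-kinase, which is read in the opposite direction. The stretch around its start is shown because a divergent start is the most common arrangement here: of 87 lincRNAs within 5 kb of a coding gene of the table, 34 were divergent from it. RefSeq's window of 250 bases before to 50 bases after its start (GRCm38.p6, plus strand; this start lies 47 bases from the GENCODE start) holds 43 CG dinucleotides, against a median of 7 over 32544 windows. Capitals mark the matches to the GC box GGGCGG, searched on both strands, which 35.9% of all windows hold.
2010320M18Rik, chr8:70776612-70776911: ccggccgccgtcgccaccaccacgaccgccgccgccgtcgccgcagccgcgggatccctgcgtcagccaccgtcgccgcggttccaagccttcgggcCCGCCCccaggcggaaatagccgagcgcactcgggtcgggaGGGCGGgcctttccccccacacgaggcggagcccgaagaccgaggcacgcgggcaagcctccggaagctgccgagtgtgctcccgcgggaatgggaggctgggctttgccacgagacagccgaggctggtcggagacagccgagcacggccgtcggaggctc
Of the 200 lincRNAs, 98 had such a window. In B6 the level of 2010320M18Rik had a median of 4.10 CPM (2.14 to 5.12 CPM), in A8 a median of 4.61 CPM (3.48 to 5.93 CPM) and in A6:A8 a median of 3.52 CPM (2.84 to 4.02 CPM), and all 3 groups overlapped. The A8 effect was 0.31 ± 0.11 (FDR 0.021) and the A6:A8 interaction -0.67 ± 0.17 (FDR 0.0016, edgeR quasi-likelihood). With 10 surrogate variables neither was called (FDR 0.51 and 0.30). For Pik3r2 the values were -0.07 (FDR 0.60) and 0.21 (FDR 0.26), so neither passed the test.

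On chromosome 6, Gm20186 (chr6:18845910-18848207, minus strand, 372 bases from the divergent Lsm8, a subunit of the spliceosomal U6 complex) was lower in A6. Its 8 A6 mice lay between 117.4 and 166 CPM with a median of 131.9 CPM, and its B6 mice between 128 and 331 CPM with a median of 220 CPM. The groups overlapped, and the effect was -0.45 ± 0.09 (log2, SE; edgeR quasi-likelihood FDR 2.9e-05). In A6:A8 the 6 mice were at 136.4 to 249 CPM, with an interaction of 0.56 ± 0.14 (FDR 0.0013) that was not called with 10 surrogate variables (FDR 0.27). Lsm8 did not pass the test for A6 (0.02, FDR 0.91). The remaining local calls were weaker. 1810058I24Rik and Gm45083 were higher in A6 (0.24 and 0.73, FDR 0.030 and 0.035), and AI838599 and Gm12976 were higher in A4 (0.33 and 0.56, FDR 0.041 and 0.046). None of these 4 was called with 10 surrogate variables, and Gm12976 was not called without E733 (FDR 0.057). For A3, A10, A14 and A17 edgeR's quasi-likelihood test and DESeq2 called 0 of 10, 5, 9 and 8 lincRNAs on the chromosome, beside 11.9%, 11.6%, 32.3% and 17.1% of all genes there. At an unadjusted p under 0.05 there were 0, 0, 0 and 3. The share of all genes on these chromosomes was not taken at this threshold.

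Among distant effects AW112010 had the most. It lies at chr19:11047612-11055808 on the minus strand, and none of the substituted chromosomes carries it. It was called higher in 6 of 8 single CSSs (A3, A6, A8, A10, A14 and A17) and had a negative interaction in 6 of 15 crosses. Of the 6 main effects, A3 and A10 were lost with no surrogate variables (FDR 0.34 and 0.40), and A6, A14 and A17 with 10 (FDR 0.31, 0.24 and 0.23). Of the 6 interactions, A14:A10 and A3:A10 were lost with none (FDR 0.10 and 0.26), and all but A3:A10 with 10 (FDR 0.17 to 0.48). That in A3:A10 was also lost without mouse 1 or 2 of this cross (FDR 0.078 and 0.054). The B6 mice lay between 19.8 and 43.0 CPM with a median of 29.3 CPM. The A8 mice lay between 30.4 and 73.7 CPM with a median of 57.2 CPM, and 6 of the 8 were above every B6 mouse. The A8 effect was 0.74 ± 0.11 (log2, SE; edgeR quasi-likelihood FDR 1.1e-07), and it was also called with no surrogate variables and with 10. The A14 mice had a median of 35.7 CPM (26.3 to 64.7 CPM) and the A6 mice a median of 40.0 CPM (32.6 to 64.8 CPM).

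In A14:A8 and A6:A8 AW112010 was near B6. Over all 15 double CSSs its strain mean minus the B6 mean ran from -0.18 (A14:A4) to 0.49 (A3:A5). These differences are in log2 CPM and not adjusted for surrogate variables. The 5 A14:A8 mice were at 28.9, 29.7, 33.9, 35.8 and 38.6 CPM, within the B6 range. The 6 A6:A8 mice were at 28.9 to 40.6 CPM, also within it. The sum of the main effects was 1.13 for A14:A8 and 1.064 for A6:A8, while the double CSSs differed from B6 by 0.26 ± 0.12 and 0.27 ± 0.12 (log2, SE). The interactions were -0.87 ± 0.18 (FDR 6.7e-05) and -0.79 ± 0.17 (FDR 0.00021, edgeR quasi-likelihood). With 10 surrogate variables they were -0.38 and -0.41 and neither was called (FDR 0.20 for both).

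6720427I07Rik, the let-7 host whose microRNAs are printed above, had the smallest p of all lincRNA interactions in both crosses with most calls. B6 mice lay between 11.5 and 27.8 CPM with a median of 20.9 CPM. A8 mice lay between 21.8 and 34.2 CPM with a median of 31.2 CPM, and A14 mice between 20.9 and 34.6 CPM with a median of 24.7 CPM. The main effects were 0.40 ± 0.10 for A8 (FDR 0.00052) and 0.28 ± 0.09 for A14 (FDR 0.014, edgeR quasi-likelihood). Mice with both chromosomes, A14:A8, were at 11.8, 13.4, 17, 17.3 and 22 CPM, so 4 of 5 were below the B6 median. The interaction was -1.03 ± 0.16 (edgeR quasi-likelihood FDR 6.1e-08), and the double CSS was 0.35 ± 0.11 below B6 on the log2 scale (fitted difference -0.35). In A6:A8 (15.99 to 20.7 CPM) the interaction was -0.78 ± 0.15 (FDR 2.9e-05) and in A17:A8 (17.3 to 24.2 CPM) it was -0.58 ± 0.16 (FDR 0.012). With 10 surrogate variables A14:A8 was still called (-0.56, FDR 0.0073), and the others were not (FDR 0.076 and 0.49). The main effects then lost their calls as well (FDR 0.18 for A8 and 0.59 for A14).

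Mir17hg was measured at a median of 4.21 CPM in B6 (2.39 to 7.54 CPM), 4.69 CPM in A8 (3.94 to 10.4 CPM) and 5.20 CPM in A14 (4.25 to 6.19 CPM), which overlapped, and neither main effect was called. The A14:A8 mice were at 2.06, 2.68, 3.44, 3.86 and 4.01 CPM. The interaction, local since the gene lies on chromosome 14, was -0.9999 ± 0.29 (log2, SE; edgeR quasi-likelihood FDR 0.0033). With 10 surrogate variables it was -0.17 (FDR 0.76). Its nearest coding gene of the table, Gpc6, 1878588 bases away, had an interaction of 0.80 (FDR 0.023), the opposite sign. Ftx, the other listed microRNA host and a gene of the X inactivation centre, had no call.

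2310001H17Rik (chr6:129208412-129238725, minus strand) had 4 ieQTLs and 3 meQTLs. The ieQTL in A14:A4 (-0.43, FDR 0.045) was lost without E733 (-0.30, FDR 0.22), without mouse 3, 4 or 5 of this cross (FDR 0.068 to 0.17) and with 10 surrogate variables (FDR 0.11), and that in A14:A10 with 10 (FDR 0.078). B6 mice had a median of 13.9 CPM (11.3 to 19.1 CPM), A8 mice 21.1 CPM (18.3 to 24.9 CPM) and A14 mice 20.7 CPM (17.9 to 24.1 CPM). Of the 8 mice each, 6 of A8 and 4 of A14 were above every B6 mouse. Main effects were 0.40 ± 0.08 (FDR 6.4e-05) and 0.46 ± 0.08 (FDR 2.7e-06, edgeR quasi-likelihood). In A6:A8 the 6 mice fell back to 12.9 to 17.7 CPM, inside the B6 range, with an interaction of -0.59 ± 0.13 (FDR 0.00019). The A8, A14 and A6:A8 calls held with no surrogate variables and with 10. In A14:A8 the mice stayed at 16.2 to 22.7 CPM, with an interaction of -0.48 ± 0.13 (FDR 0.0027) that 10 surrogate variables did not keep (FDR 0.088).

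**Figure D4:**
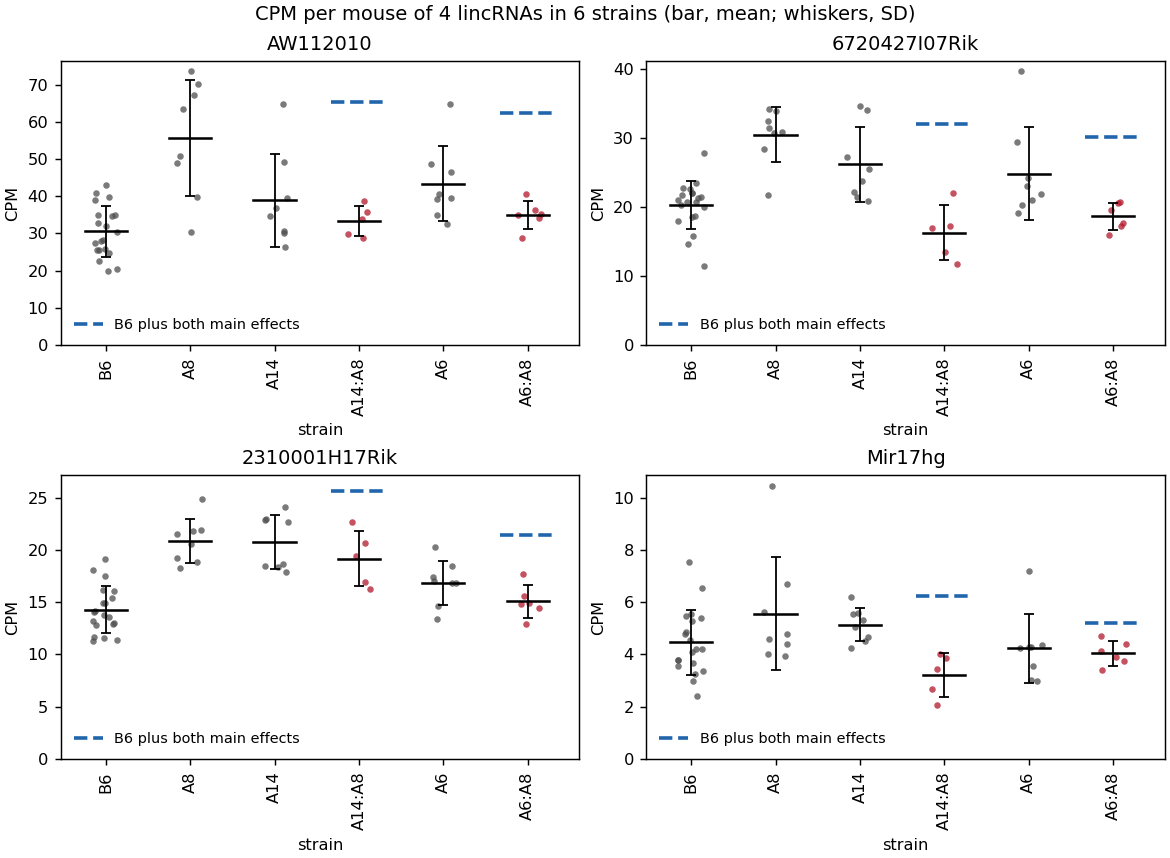
CPM per mouse (points) of AW112010, 6720427I07Rik, 2310001H17Rik and Mir17hg in B6, A8, A14, A14:A8, A6 and A6:A8, with the mean (bar) and SD (whiskers); double CSSs are red. The dashed blue line is the geometric mean of B6 raised by both fitted main effects, which come from the fit with 5 surrogate variables. In AW112010 the A14:A8 mice sit between 28.9 and 38.6 CPM, within the B6 range of 19.8 to 43.0 CPM.

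C730036E19Rik (chr1:151138034-151142345, plus strand) was called higher in 6 of the 8 single CSSs, by 0.65 to 1.03 on the log2 scale. Of these, A3 and A10 were lost with no surrogate variables (FDR 0.38 and 0.20). Its B6 mice spread widely, from 1.82 to 7.73 CPM with a median of 4.39 CPM. A14 mice lay between 4.32 and 14.3 CPM with a median of 8.48 CPM, and A6 mice between 5.69 and 12.6 CPM with a median of 11.2 CPM, both overlapping B6. The A14 effect was 1.03 ± 0.20 (FDR 2.9e-05) and the A6 effect 0.77 ± 0.18 (FDR 0.0041, edgeR quasi-likelihood). In A6:A8 (3.55 to 11.4 CPM) the interaction was -0.995 ± 0.31 (FDR 0.012). These 3 calls held with no surrogate variables and with 10.

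Gm26905, at chr8:58171435-58298866 on the plus strand, had 3 called interactions, of which 1 was positive. B6 mice had a median of 26.2 CPM (17.2 to 41.4 CPM), A4 mice 38.7 CPM (32.4 to 62.2 CPM) and A6 mice 34.8 CPM (28.4 to 41.4 CPM). Main effects were 0.36 ± 0.06 (FDR 5.8e-05) and 0.32 ± 0.06 (FDR 0.00061, edgeR quasi-likelihood). A6:A4 mice were at 30.7, 32.8, 33, 33.9 and 37.1 CPM, with a median below that of either single CSS, and the interaction was -0.51 ± 0.11 (FDR 0.0069). In A14:A8 the interaction was 0.47 ± 0.11 (FDR 0.00041), and with no surrogate variables it was 0.14 (FDR 0.55) and not called. That in A14:A4 (-0.39, FDR 0.030) was lost without E733 (FDR 0.076) and with 10 surrogate variables (FDR 0.22). The A4 main effect and the A6:A4 interaction were lost with 10 surrogate variables (FDR 0.059 and 0.51). 1700020I14Rik (chr2:119594297-119607502, plus strand) rose in A8 by 0.20 ± 0.06 (FDR 0.0028, edgeR quasi-likelihood), and by 0.40 with no surrogate variables. Its median was 140 CPM in B6 and 186 CPM in A8, with 7 of 8 A8 mice above every B6 mouse. In A14:A8 it stood at 119 to 156 CPM, with an interaction of -0.39 ± 0.09 (FDR 0.00027, edgeR quasi-likelihood). Both calls held with 0 and with 10 surrogate variables. Lncpint, a p53-induced lincRNA, rose in A10 by 0.39 ± 0.11 (FDR 0.025, edgeR quasi-likelihood), and by 0.54 with no surrogate variables. This effect was also called with 0 and with 10. Its median was 5.93 CPM in B6 and 8.71 CPM in A10. Of the 8 A10 mice 6 were above every B6 mouse. In A6:A10 its interaction was -0.76 ± 0.20 (FDR 0.033), lost with 10 (FDR 0.068) and without mouse 2, 3 or 5 of this cross (FDR 0.087, 0.097 and 0.071).

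Few distant effects lowered a lincRNA. Of 115 called distant main effects 28 were lower than B6. Gm12840 (chr4:117700188-117700923, plus strand) fell in A6, A8 and A10, and in A6 its mice lay between 40.96 and 67.8 CPM with a median of 58.9 CPM against 92.2 CPM in B6 (47.1 to 126 CPM). The A6 effect was -0.43 ± 0.09 (log2, SE; FDR 0.00135, edgeR quasi-likelihood), and A6:A8 had a positive interaction (0.55 ± 0.15, FDR 0.0037) that was lost with 10 surrogate variables (0.27, FDR 0.40). Of the 3 main effects, A6 was also called with 0 and with 10, A10 was lost with none (FDR 0.43), and A8 was lost with none (FDR 0.25) and with 10 (FDR 0.54). Gm42428 (chr5:44136620-44136921, plus strand) fell in A17, A4 and A6, with medians of 6.28, 10.2 and 7.59 CPM against 13.6 CPM in B6, and with overlap throughout. Its A17 effect was -0.84 ± 0.18 (FDR 0.0057) and held with 0 and with 10 surrogate variables, while A4 and A6 were lost with 10 (FDR 0.14 and 0.10). Gm15611, 1078 bases upstream of Crot, had the 2 largest interactions, -3.01 ± 0.80 in A14:A4 and -2.59 ± 0.73 in A17:A4 (FDR 0.017 and 0.048, edgeR quasi-likelihood). Its B6 mice were spread from 1.38 to 14.2 CPM. The A14:A4 mice were at 0.265, 0.408, 0.654, 1.88 and 2.20 CPM and the A17:A4 mice at 1.08, 2.91, 3.94 and 4.03 CPM, both overlapping B6, and neither call held with 10 surrogate variables (FDR 0.094 and 0.22). Without mouse E733, which is in A14:A4, the FDRs were 0.061 and 0.062, and the A17:A4 call was lost without any 1 of its 4 mice (FDR 0.066 to 0.14).

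Among the lists of lincRNAs with known roles, some held called effects and others held none. Whether any list held more or fewer calls than lincRNAs in general was not tested. Of the 4 architectural and nuclear RNAs (Malat1, Neat1, Meg3, 2900097C17Rik), Neat1 and Meg3 had meQTLs. Neat1, at chr19:5824708-5845478 on the minus strand, rose by 0.57 ± 0.16 in A4 (FDR 0.0090) and by 0.62 ± 0.16 in A6 (FDR 0.0064) and fell by 0.45 in A14 (-0.45 ± 0.17, FDR 0.038, edgeR quasi-likelihood). B6 mice lay between 95.7 and 214 CPM with a median of 145 CPM, A4 mice between 137.6 and 515 CPM with a median of 244 CPM, A6 mice between 118 and 397 CPM with a median of 227 CPM and A14 mice between 102.9 and 135 CPM with a median of 124.9 CPM, and all overlapped B6. With 10 surrogate variables A4 and A6 were lost (FDR 0.76 and 0.27), while A14 was kept (-0.79, FDR 0.000816). With none A14 was lost (-0.26, FDR 0.28). The A14:A8 interaction of Neat1 was 0.94 ± 0.28 (FDR 0.0056), among the few positive ones (1.52 with 10 surrogate variables, and 0.60 with an FDR of 0.092 with none). 2900097C17Rik had 1 ieQTL, in A14:A4 (0.46, FDR 0.049), which was lost without E733 (FDR 0.084), without mouse 2, 3, 4 or 5 of this cross (FDR 0.057 to 0.16) and with 10 surrogate variables (FDR 0.14). Meg3, an imprinted RNA of the Dlk1 region, was called in A8 only (0.77 ± 0.28, FDR 0.027), at 0.821 to 2.25 CPM against 0.121 to 2.15 CPM in B6, and not with 10 surrogate variables (FDR 0.18). Among the 5 hosts of small nucleolar RNAs, Epb41l4aos fell by 0.31 in A4 (-0.31, FDR 0.043) and Snhg6 had a negative A6:A8 interaction (-0.38, FDR 0.049), while Snhg12, Snhg18 and Snhg20 had no call. Both calls were lost with 10 surrogate variables (FDR 0.059 and 0.92), and that of Snhg6 also without mouse 1, 4, 5 or 6 of A6:A8 (FDR 0.063 to 0.093) or E733 (FDR 0.076). Jpx had none. Pvt1, beside Myc, had an interaction in A14:A10 (-0.99, FDR 0.049) that was lost without mouse 2, 3, 4 or 5 of this cross (FDR 0.061 to 0.13), without E733 (FDR 0.051) and with 10 surrogate variables (FDR 0.18).

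**Figure D5:**
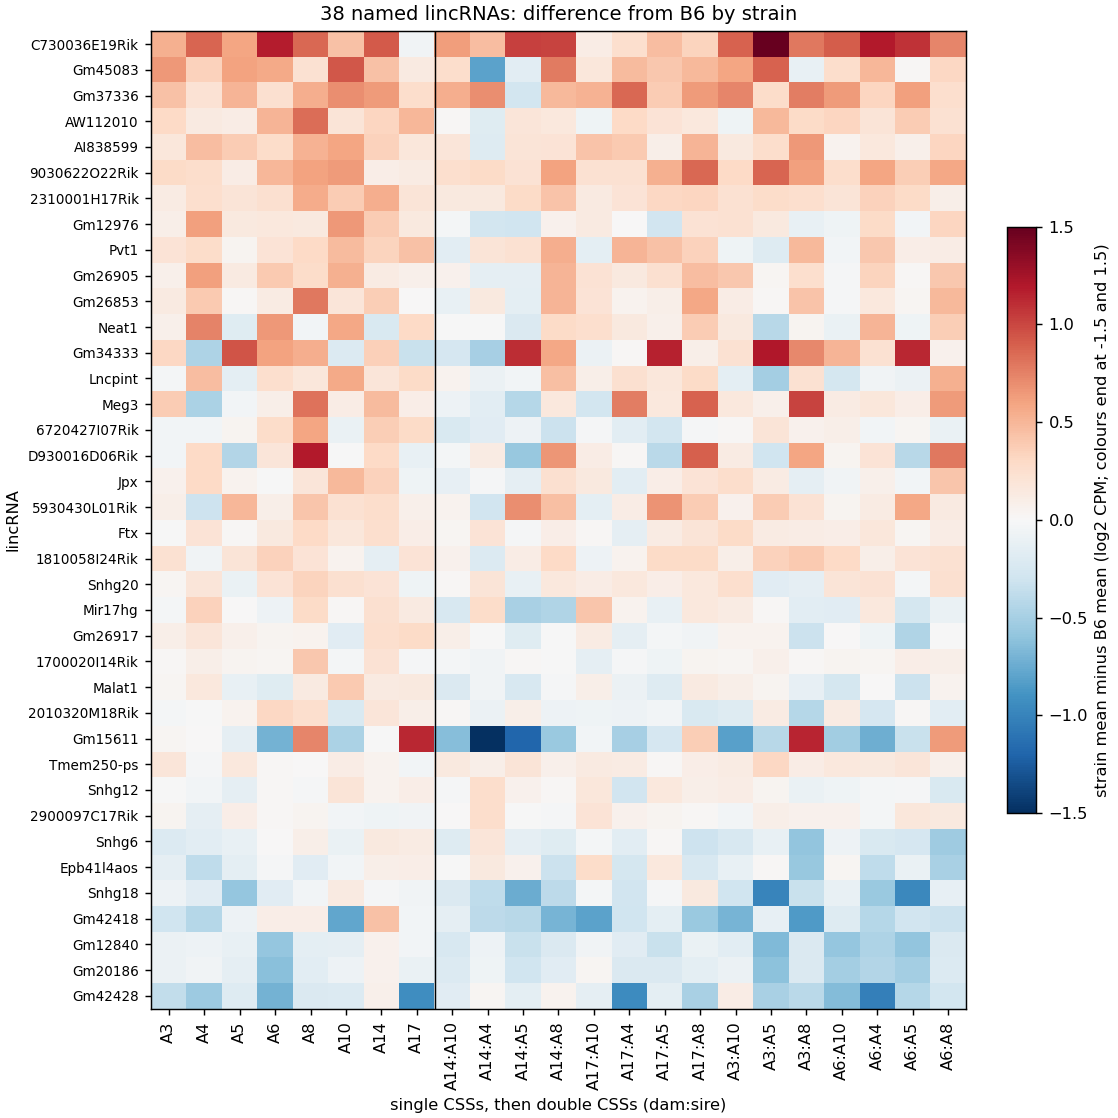
Strain mean minus B6 mean (log2 CPM, not adjusted for surrogate variables) for 38 named lincRNAs (rows, ordered by their mean difference over the 8 single CSSs) in 8 single and 15 double CSSs (columns); red is higher than B6 and blue lower, and colours end at -1.5 and 1.5. D930016D06Rik is red in the strains with A8 and blue in those with A5, and Gm34333 is red in those with A5.

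The last question was how often double CSSs with a called interaction lay nearer to B6 than their main effects add up to. An interaction was antagonistic where the double CSS lay nearer to B6 than its main effects add up to, and reverted where in addition a main effect was called and the double CSS did not differ from B6 at an unadjusted p of 0.1. Of 84 called interactions of lincRNAs 78 were antagonistic (92.9%), against 94.7% for protein-coding genes, and 40 were reverted (47.6%), against 64.3%. The interaction and the antagonistic label both use the sum of main effects from the same fit. The antagonistic share is therefore not independent of the calls, in either class of genes. For 72 lincRNAs under joint control, the part of the fitted strain sum of squares that an additive model left had a median of 50.1%. For 6314 protein-coding genes it was 57.0%. For genes under a log2 CPM of 3 the medians were 50.6% and 53.6%. No test was made of these differences. The medians are not corrected for noise in the fitted strain values, so they do not give the true share of interactions. The authors state that their own like estimate may be biased slightly upward.

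The nearest coding genes were compared with the lincRNAs for the same effects. Of 209 called effects, 71 belonged to lincRNAs within 5 kb of a coding gene of the table. In 19 of these 71 the neighbour was called for the same effect, 15 times with the same sign. That is 26.8%, where of all protein-coding genes a mean of 21.1% was called for the same effects. Farther out the neighbour was called in 23 effects (16.7%, beside 17.7% of protein-coding genes), with the same sign in 11. Both shares are near that background. The following pairs were chosen after their values were seen. Gm43848, 120 bases downstream of Rap1a on the same strand, rose in A8 with it (0.53 and 0.48) and had a negative A14:A8 interaction with it (-0.99 and -0.78). Gm17518, divergent from Mis18a by 108 bases, had negative interactions with it in A14:A8 (-1.02 and -0.64) and A6:A8 (-1.05 and -0.80). Gm16548, which overlaps the coagulation factor gene F5 on the opposite strand, went against it. It rose by 0.32 in A14, where F5 fell by 0.49, and its A14:A8 interaction was -0.84 where that of F5 was 1.08 (FDR 9.8e-05 and 2.3e-12, edgeR quasi-likelihood). The strand setting of the counting is not given in the sources used here, so reads of overlapping genes may be split between them.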

How the data were processed

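Total RNA of the caudate lobe of the liver was sequenced as stranded 50 base single-end libraries. The authors used TopHat2 on mm10, placed unaligned reads on an A/J version of the genome and ran HTSeq. They deposited raw counts, whole numbers, of 13289 genes in 154 mice. Every column matched a sample. Genes were typed and placed with GENCODE vM21 on the same build (47 genes without an entry were counted as distant); microRNA and promoter sequences came from RefSeq (GRCm38.p6).

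Counts were fitted with edgeR 4.0.16 in R 4.3.3 (TMM, glmQLFit with legacy=TRUE), on 8 substitutions, 15 crosses and 5 surrogate variables (sva 3.50.0). P-values were adjusted by Benjamini-Hochberg within each effect, separately for genes on and off the substituted chromosomes, and over all genes for joint tests; calls have an FDR under 0.05. CPM are per 1000000 of the TMM library size. Depth was 4638701 to 30465477 counts a mouse. The code was tested on simulated data. Alternatives were size factors and tests of DESeq2 1.42.0, 0 or 10 surrogate variables, a filter of 15 counts in 75% of mice, legacy=FALSE, 1 adjustment per effect and leaving out mice.

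Named lincRNAs are the 8 most abundant, per effect those with the smallest p (3 local, 2 distant, 1 per interaction), the 3 with the smallest joint p, the most meQTLs or the most ieQTLs, and listed classes. Members and lists were chosen with earlier results of these data known.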

Additional observations from a re-analysis of the deposited data

Results flagged for a closer look

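Among 84 gene and strain values examined in groups of 4 to 10 mice, 6 had 1 mouse far from the others, where chance alone gives about 1 in 20. One A8 mouse had 21.8 CPM of 6720427I07Rik, the lowest of its group, and another had 10.4 CPM of Mir17hg, the highest. One A4 mouse had 515 CPM of Neat1 and one had 62.2 CPM of Gm26905. For Gm42418, beside the ribosomal RNA gene, one A14 mouse stood at 5989 CPM and one A14:A8 mouse at 2784 CPM, where the other 4 A14:A8 mice lay between 755 and 890 CPM. The A14:A8 interaction of Gm42418 was -1.40 (edgeR quasi-likelihood FDR 0.040) and was lost without mouse 2, 3, 4 or 5 of this strain (FDR 0.052 to 0.074), without E733 (FDR 0.052) and with 10 surrogate variables (FDR 0.063).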

How the results depend on the processing

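The number of surrogate variables mattered most. With none, the called counts were 17 local and 198 distant main effects, 24 local and 156 distant interactions, 121 lincRNAs under joint control and 47 with joint interactions. With 10, they were 5, 43, 2, 12 and, for joint interactions, 11, while joint control was called for 55. Of the 209 called effects, 55 were also called with 10. The other alternatives kept all 6 counts within 1.5 times, but with the filter on low counts 62.7% of the 209 calls were shared, which is 55.3% of the calls made there, and 41 of the 209 were on lincRNAs the filter left out. Leaving out 1 double CSS mouse at a time gave 9 to 10, 113 to 119, 12 to 15, 61 to 73, 69 to 77 and 26 to 34. Main effects compare single CSS mice with B6 mice, and none of these was left out. The ranges for main effects therefore do not measure how far those calls rest on single mice. The 9 calls of A14:A4 fell to 1 without mouse E733. No named effect reversed. Of 111 called effects of named lincRNAs, 26 were called with 0, 5 and 10 surrogate variables. The fits that left out each double CSS mouse in turn used the Wald form of the test, added after seeing the data. Over all mice this form kept all 6 counts within 1.5 times. These fits kept the normalization, negative binomial dispersions and surrogate variables of all mice, so the mouse left out still shaped them. The separate fit without E733 estimated them anew. No paired analysis was possible because the labels give no replicate numbers that tie mice of different strains. Depth limits the lincRNAs with few counts: 129 of 200 had 15 counts in 75% of the mice or more.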
